A study of Sus scrofa with 6 samples.

Results

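ESAM, ROBO4, ETS1 and FLI1 are a set of 4 genes of the vessel wall and of vessel and blood development, taken by name from the 1780 genes of the deposited count table. All 4 mapped to a single Ensembl pig gene each, and all 4 had enough reads to be tested. They were compared between parthenotes and controls, whole pig embryos at embryonic day 21 of Landrace x Yorkshire x Duroc (LYD) stock. The 3 controls were untreated embryos, and how they were conceived is not given in the labels. The 3 parthenotes grew from oocytes that received electric pulses instead of sperm, so that all of their chromosomes were maternal. For these, 200 parthenogenetic embryos were placed into the oviducts of each of 2 LYD surrogate gilts, so at least 2 of the 3 parthenotes shared a gilt if all came from that transfer. Nothing in the labels says which embryos shared a dam or litter, and p-values therefore measure the spread between these 6 embryos only.

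Blood vessels are lined by endothelial cells, which hold to each other through junctions that let vessels carry blood without leaking. ESAM encodes the endothelial cell-selective adhesion molecule, an immunoglobulin-family protein of tight junctions that is also found on platelets and blood stem cells. ROBO4 encodes a roundabout receptor found mainly on endothelium, where it is known for stabilising vessels, while its relatives guide axons. ETS1 and FLI1 encode transcription factors that share the ETS DNA-binding domain. FLI1 is needed for vessels and for platelet-forming megakaryocytes, and ETS1 is active in endothelium, lymphoid cells, neural crest and mesenchyme.

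The table held 1193714 to 1484193 counted reads per embryo. RefSeq placed 685 of its genes by symbol, 684 of them on chromosome 9, and the remaining genes were not placed. A level is given as CPM, reads per 1000000 of the table's reads after scaling with TMM, edgeR's method for making libraries comparable. It is a share of these reads and is not corrected for gene length, so levels were not compared between genes. Of 807 tested genes, 42 (5.20%) passed an adjusted p of 0.05 in edgeR's quasi-likelihood test, 29 lower and 13 higher in parthenotes, or 27 and 5 where totals alone scaled the libraries. PEG10, a gene expressed from the paternal copy, had 25305 to 34078 CPM in controls and 10.1 to 27.5 CPM in parthenotes. The most abundant gene took 20.8% of the reads in control 1, 8.29% and 8.47% in the other controls, and 15.4% to 19.1% in the parthenotes. Since reads were taken from whole embryos, fewer cells of a type and less RNA per cell cannot be told apart.

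ESAM was the member with the lowest ratio of parthenotes to controls. Its level was 422, 461 and 436 CPM in controls 1 to 3, compared with 328, 352 and 304 CPM in parthenotes 1 to 3. Every parthenote lay below every control, and the group means were 440 ± 20.2 and 328 ± 24.1 CPM (SD, n = 3 each). The change, given throughout as the fitted log2 of parthenotes over controls, was -0.42 ± 0.11 (SE; 95% interval -0.67 to -0.17), or 25.3% lower, with an interval from -37.3% to -11.06%. The reads behind it were 535, 588 and 577 in controls and 429, 497 and 452 in parthenotes.

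ESAM did not pass the test across all genes. In edgeR's quasi-likelihood test its unadjusted p was 0.00436, the 52nd smallest of 807, and its adjusted p was 0.0677, when 5.20% of all genes passed. In DESeq2, where 9.14% of the genes with an adjusted p passed, ESAM passed as well, at a log2 fold change of -0.43 and an adjusted p of 0.0141. Over 16 alternative settings its log2 fold change ran from -0.47 to -0.38 and its adjusted p from 0.0141 to 0.208, and DESeq2 was the only setting under which it passed.

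**Figure D1:**
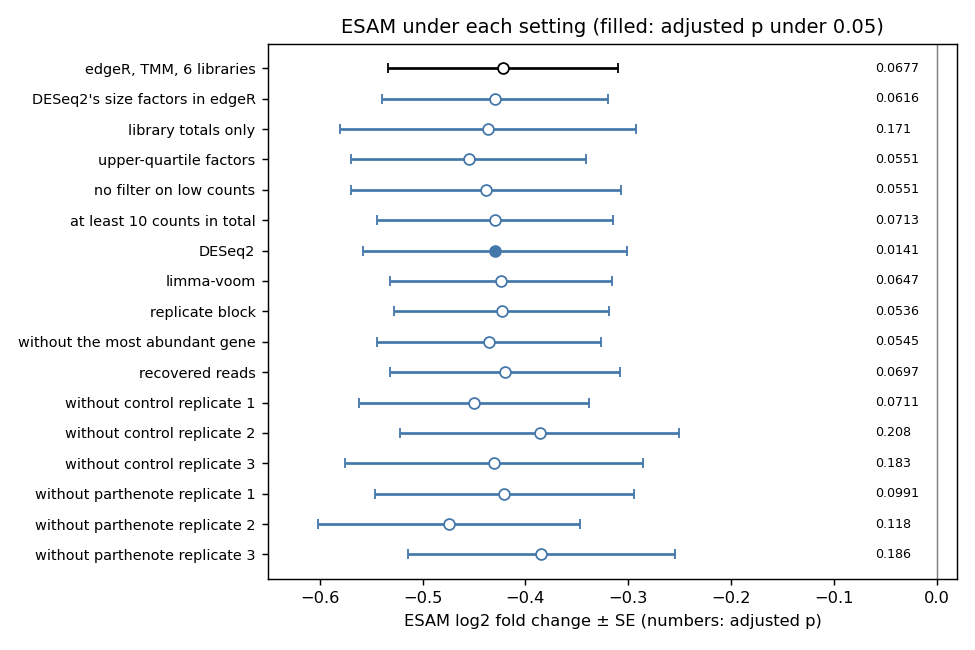
ESAM log2 fold change of parthenotes against controls (x axis, point and SE) under each of 17 settings (y axis), with the adjusted p at the right and filled points for an adjusted p under 0.05. The points lie between -0.47 and -0.38, and DESeq2 is the only filled one.

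ROBO4, which lies 91.3 kb from ESAM, was not lower in parthenotes. It had 355, 372 and 325 CPM in controls 1 to 3, compared with 377, 418 and 364 CPM in parthenotes 1 to 3. Control 2 lay above parthenote 3, so the groups overlapped. The means were 350 ± 23.9 and 386 ± 28.3 CPM (SD, n = 3 each), a log2 change of 0.14 ± 0.12 (95% interval -0.12 to 0.40). In edgeR's test the adjusted p was 0.515, and the interval leaves room for a change from -7.99% to 32.2%. The reads were 450, 474 and 430 in controls and 493, 590 and 541 in parthenotes.

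ETS1 had the highest counts of the 4 and the smallest difference. The levels were 2881, 2676 and 2677 CPM in controls 1 to 3, compared with 2712, 2802 and 2653 CPM in parthenotes 1 to 3. The lowest and the second highest values were both parthenotes, and the groups overlapped throughout. Means of 2744 ± 118 and 2722 ± 75.0 CPM (SD, n = 3 each) gave a log2 change of -0.01 ± 0.09, with an adjusted p of 0.966 in edgeR's test. The 95% interval of -0.21 to 0.19 corresponds to a change between -13.6% and 13.8%. With 3410 to 3952 reads per embryo, counting alone gives an error of 1.59% to 1.71%, while the SD between embryos was 4.31% of the mean in controls and 2.76% in parthenotes.

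FLI1 lay between these. It had 1221, 1135 and 1045 CPM in controls 1 to 3, compared with 961, 1038 and 1034 CPM in parthenotes 1 to 3. Every parthenote lay below every control, but the lowest control and the highest parthenote were nearly level. The means were 1133 ± 87.8 and 1011 ± 43.2 CPM (SD, n = 3 each), a log2 change of -0.16 ± 0.09 (95% interval -0.36 to 0.03) that did not pass edgeR's test (adjusted p = 0.320). The reads ran from 1384 to 1549 in controls and from 1257 to 1537 in parthenotes.

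**Figure D2:**
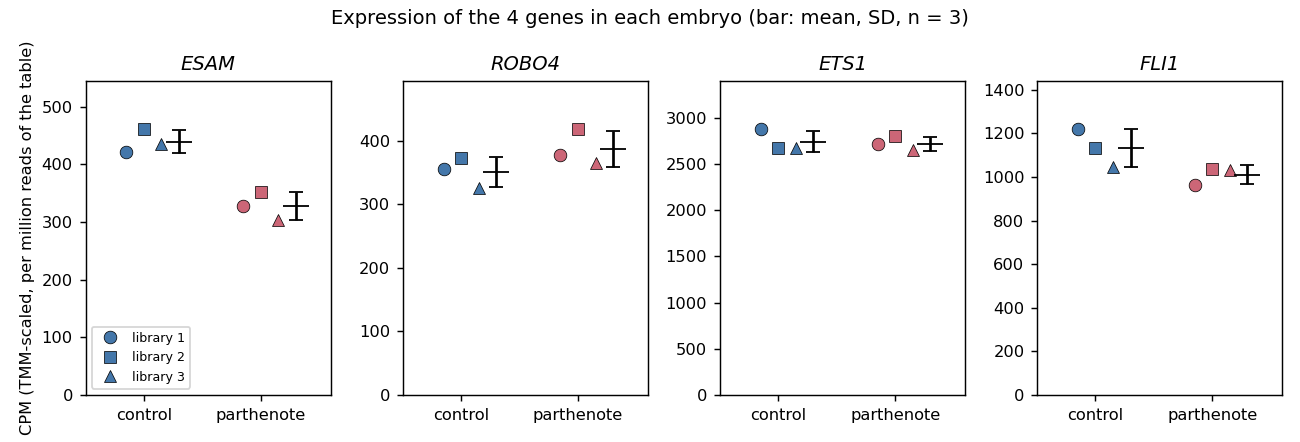
Level of each of the 4 genes in TMM-scaled CPM (y axis, from 0) in the 3 controls and 3 parthenotes (x axis), with the library number as the symbol and the mean and SD (n = 3) as bars. For ESAM all parthenotes, at 304 to 352 CPM, lie below all controls, at 422 to 461 CPM, while the groups overlap for ROBO4 and ETS1.

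In all, 0 of the 4 genes passed edgeR's test or limma-voom and 1 passed DESeq2. Over all genes 5.20% passed in edgeR, 39 of 807 in limma-voom and 9.14% of those with an adjusted p in DESeq2. Of the 4 members 1, ESAM, had an unadjusted p under 0.05, as did 21.7% of all genes. The groups did not overlap for 2 of the 4, ESAM and FLI1, both lower in parthenotes, compared with 28.0% of all tested genes in either direction and 14.3% in this direction. For FLI1 and ROBO4 this depended on the scaling. The authors' normalised values rest on reads that differ slightly from the count table, by at most 4 for FLI1 and 1 for ROBO4 in any embryo, and the counts of the table times the authors' factors gave the same separations. In the authors' deposited normalised values FLI1 was 1634, 1506 and 1387 in controls and 1279, 1405 and 1410 in parthenotes, and the groups overlapped. ROBO4 was 474, 492 and 431 in controls and 503, 566 and 497 in parthenotes, with no overlap. ESAM, at 563, 611 and 578 against 437, 478 and 414, was apart on both scales, and also where libraries were scaled by their totals alone. The median log2 fold change of the 4 was -0.09, that of all tested genes 0.02.

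The counts of 2 genes from the same embryo form a ratio that does not depend on how the libraries are scaled, so the members were also set against each other. ESAM had 1.19, 1.24 and 1.34 reads per ROBO4 read in controls 1 to 3, compared with 0.870, 0.842 and 0.835 in parthenotes 1 to 3. ESAM reads thus outnumbered ROBO4 reads in the 3 controls and were fewer in the 3 parthenotes. As reads are not corrected for gene length, this does not say which gene was expressed more, and only the shift between the groups is read. The mean log2 ratio was 0.33 ± 0.09 in controls and -0.24 ± 0.03 in parthenotes (SD, n = 3 each), a difference of -0.56.

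The ratio of ESAM to ETS1 differed by -0.41 and that of ESAM to FLI1 by -0.26 on the log2 scale, with every parthenote below every control in both. Parthenote 1 at 0.341 and control 1 at 0.345 ESAM reads per FLI1 read were nearly level. ROBO4 to FLI1 differed by 0.30 and ETS1 to FLI1 by 0.15, with the parthenotes higher and no overlap, though control 3 and parthenote 3 were level at 2.56 ETS1 reads per FLI1 read. ROBO4 to ETS1, with a difference of 0.15, overlapped between the groups. In a two-sided exact permutation test over samples p was 0.10 for the 5 pairs without overlap, the smallest value that 3 against 3 can give, and 0.30 for ROBO4 to ETS1. Adjusted over the 6 pairs, p was 0.12 and 0.30, so no pair could reach 0.05 in this design. Each member enters several of the 6 pairs, so the 5 separations are not independent and partly restate the lower levels of ESAM and FLI1. How often other pairs of genes in the table separate in this way was not tested, so the count of 5 has no background to be set against.

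**Figure D3:**
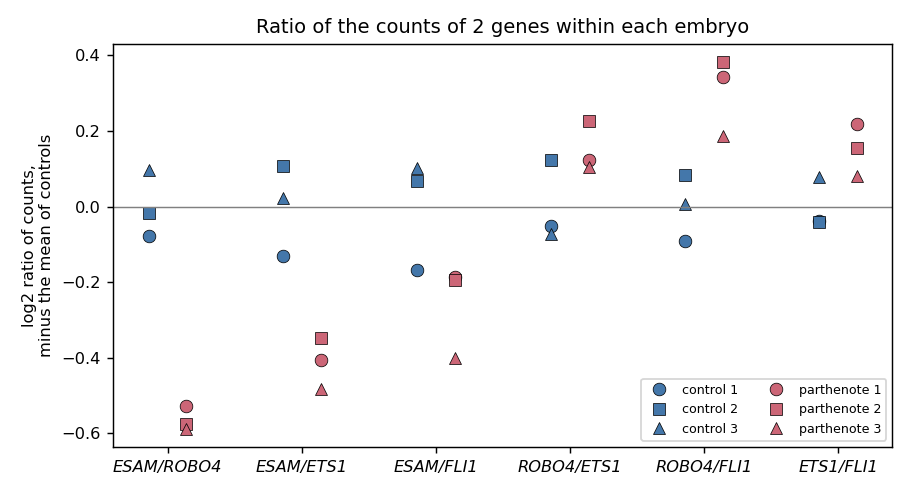
Log2 ratio of the reads of 2 genes in the same embryo, minus the mean of the 3 controls (y axis), for the 6 pairs of members (x axis), with a point per embryo. The largest shift is that of ESAM to ROBO4, at -0.56 between the group means, and ROBO4 to ETS1 is the pair whose groups overlap.

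Other vessel genes were measured in the same embryos. Of a list of 80 endothelial and vascular genes, 10 were in the table, the 4 members among them, and all 10 were tested. Markers such as PECAM1, CDH5 and KDR were not analysed here. Of the 10, 0 rose and 0 fell in edgeR's test, where 5.20% of all genes passed, and limma-voom also gave 0. ESAM alone passed in DESeq2, as did 9.14% of all genes with an adjusted p there. It alone had an unadjusted p under 0.05, as did 21.7% of all genes. The list had 6 log2 fold changes above 0, 4 below and a median of 0.03 against 0.02 for all genes. The 6 that are not members ran from -0.03 for CD34 to 0.44 for PROX1. Their summed level was 7210 to 7540 CPM in controls and 7601 to 7972 CPM in parthenotes. Means of 2329 CPM for AMOTL1 and 2043 CPM for JAM3 in controls made up most of it, and neither gene is restricted to endothelium. The part of endothelial RNA in the level of ESAM was not tested.

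CD34, a surface sialomucin of endothelial and blood progenitor cells, had 1043, 1215 and 1090 CPM in controls and 1047, 1120 and 1122 CPM in parthenotes. The groups overlapped, with a log2 change of -0.03 ± 0.09. MCAM, an adhesion molecule of endothelium and smooth muscle, had 1083 to 1142 CPM in controls and 1063 to 1255 CPM in parthenotes. Its log2 change was 0.02 ± 0.09 and fell on either side of 0 depending on the scaling. Reads of ESAM per CD34 read were 0.404, 0.380 and 0.400 in controls and 0.313, 0.315 and 0.271 in parthenotes. Per MCAM read they were 0.379, 0.404 and 0.402 against 0.309, 0.281 and 0.283. ESAM was thus lower relative to both markers in 3 of 3 parthenotes, by 24.2% and 26.4%. Since CD34 and MCAM changed little between the groups, both ratios mainly restate the lower level of ESAM. The exact permutation p was 0.10, the smallest possible, and 0.12 when adjusted over 6 ratios that were chosen after the values were seen.

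ROBO4 per CD34 read was 0.340, 0.306 and 0.298 in controls and 0.360, 0.373 and 0.325 in parthenotes. These groups overlapped, with an exact permutation p of 0.20.

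The remaining vessel genes of the list were AMOTL1, JAM3, KRIT1 and PROX1. AMOTL1, an angiomotin-family junction protein gene, was at 0.10 ± 0.09 in log2 change and JAM3, a junctional adhesion molecule gene, at 0.12 ± 0.08. KRIT1, in which mutations cause cerebral cavernous malformations, was at 0.03 ± 0.10. PROX1, the regulator of lymphatic endothelium that is also expressed in liver, lens and nervous system, had 126, 221 and 214 CPM in controls and 262, 269 and 230 CPM in parthenotes. All parthenotes were above all controls, but its log2 change of 0.44 ± 0.21 did not pass edgeR's test (adjusted p = 0.263). It was 0.22 without control 1, which had the least PROX1, and 0.58 without control 2.

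**Figure D4:**
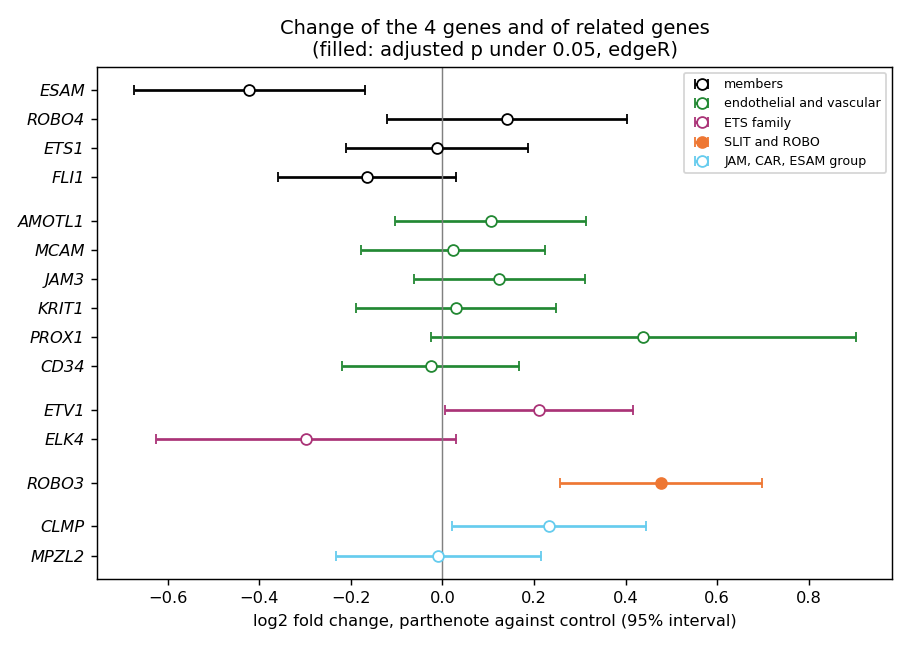
Log2 fold change of parthenotes against controls with its 95% interval (x axis) for the 4 members and for the related genes named in the text (y axis), with filled points for an adjusted p under 0.05 in edgeR's test. ESAM, at -0.42, is open, and ROBO3, at 0.48, is the only filled point.

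The family and pathway relatives of each member were then examined. ESAM belongs to the family of junction proteins that includes the JAM proteins and the coxsackievirus and adenovirus receptor CAR. Of 21 genes of this group and its partners, 8 were in the table and 7 were tested, with 0 rises and 0 falls in edgeR's test and limma-voom, 1 call (ESAM) in DESeq2, and 2 genes, ESAM and CLMP, with an unadjusted p under 0.05. Over all genes these shares were 5.20% in edgeR, 9.14% in DESeq2 and 21.7% by unadjusted p. VSIG2, the neighbour of ESAM, had 3 to 8 reads per embryo and was not tested. ESAM had the lowest log2 fold change of the 7, and the other 6 ran from -0.01 to 0.23, with a median of 0.16. CLMP, a CAR-like adhesion protein gene, had 1130 to 1244 CPM in controls and 1256 to 1528 CPM in parthenotes. Its log2 change of 0.23 ± 0.09 did not pass edgeR's test (adjusted p = 0.189). MPZL2, an epithelial adhesion gene, was at -0.01 ± 0.10.

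For ROBO4, 2 of the 17 genes of the SLIT and ROBO pathway were in the table, ROBO3 and ROBO4. ROBO3, which encodes a receptor that steers commissural axons across the midline, rose. It had 466, 472 and 477 CPM in controls and 631, 701 and 638 CPM in parthenotes. Its log2 change of 0.48 ± 0.10 passed edgeR's test (adjusted p = 0.0242), and 1.61% of all tested genes passed in this direction. The call was lost where totals alone scaled the libraries (adjusted p = 0.0973) and without control 2, control 3, parthenote 2 or parthenote 3 (0.0765 to 0.112), at log2 fold changes of 0.43 to 0.48. The ratio of the relatives was formed after ROBO3 was seen to rise, and restates that difference. ROBO4 had 0.760, 0.789 and 0.680 reads per ROBO3 read in controls and 0.598, 0.597 and 0.571 in parthenotes, 20.7% lower, with no overlap and an exact permutation p of 0.10, the smallest possible, or 0.12 adjusted over the 6 ratios chosen after the values were seen.

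A list of neural markers, chosen with earlier results of these data known, was examined as well. Of 16 such genes 4 were in the table, and 3 of these rose, where 1.61% of all tested genes passed in this direction. Because the list was chosen with those earlier results known, this count is a description and not a test of neural genes. The log2 change was 0.64 ± 0.13 for NRCAM, 0.55 ± 0.09 for MAP6 and 0.49 ± 0.09 for FEZ1, while NCAM1, at 0.33 ± 0.13 in log2 change, did not pass edgeR's test (adjusted p = 0.170). Their summed level was 7137 to 8376 CPM in controls and 9616 to 11393 CPM in parthenotes. MAP6, a microtubule-stabilising protein gene, lost its call without control 3, where it was at 0.55 (adjusted p = 0.0505). FEZ1, an axonal transport gene, lost it without control 2 or 3, at 0.47 and 0.46 (0.0761 and 0.0699). NRCAM, a neuronal adhesion gene, lost it without control 2, parthenote 2 or parthenote 3, at 0.54 to 0.65 (0.0710 to 0.0843). With totals alone as scaling MAP6 and NRCAM did not pass either (0.0515 and 0.0948). NRGN, a neuronal gene that is not on this list, went the other way, with every parthenote below every control. Its log2 change was -0.89 ± 0.25 and did not pass edgeR's test (adjusted p = 0.0837). The part of neural RNA in the levels of ROBO3 and ROBO4 was not tested.

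Of 27 ETS family factors 4 were in the table, ETS1, FLI1, ETV1 and ELK4, and 0 of these 4 passed in edgeR's test, DESeq2 or limma-voom, with 1, ETV1, at an unadjusted p under 0.05. The shares over all genes were 5.20% in edgeR, 9.14% in DESeq2 and 21.7% at an unadjusted p under 0.05. Their median log2 fold change was -0.09. ETV1, a factor of neurons, muscle and mesenchyme, had 1095, 1004 and 959 CPM in controls and 1157, 1282 and 1098 CPM in parthenotes, all above every control by a small margin. The log2 change of 0.21 ± 0.09 did not pass edgeR's test (adjusted p = 0.216). ELK4, a partner of serum response factor, was at -0.30 ± 0.14 (adjusted p = 0.285), with overlapping groups.

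Blood cell markers were set beside ESAM and FLI1, which blood cells also express. Of 37 genes 4 were in the table. CD3D had 0 reads in all embryos and CD3E 0 to 3, and CD34 is given above. HBB, a beta-globin gene of red cells, had 873, 1226 and 2065 CPM in controls and 167, 575 and 102 CPM in parthenotes. Its log2 change of -2.30 ± 0.78 did not pass edgeR's test (adjusted p = 0.189), though it passed in DESeq2 (0.0426), in limma-voom (0.0293) and without parthenote 2 (0.00550, at -3.37). Globin genes can share reads. The summed level of the list was 1917 to 3155 CPM in controls and 1216 to 1695 CPM in parthenotes. HBB and CD34 made up nearly all of it, and as CD34 changed little, the difference mainly restates that of HBB. Parthenote 2, with the most HBB of the parthenotes, also had the most ESAM among them. Its FLI1, at 1038 CPM, was nearly level with the 1034 CPM of parthenote 3. Control 3, with the most HBB of all, had the least FLI1 of the controls. Its ESAM, at 436 CPM, lay between the 422 CPM of control 1 and the 461 CPM of control 2. The part of blood cells in the levels of ESAM and FLI1 was not tested.

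Mesenchymal and mural cells surround vessels and can express ETS1. Of 21 markers 4 were in the table and tested, 0 rose and 0 fell in edgeR's test, 0 passed in DESeq2 or limma-voom, and 0 had an unadjusted p under 0.05. Over all genes these shares were 5.20% in edgeR, 9.14% in DESeq2 and 21.7% by unadjusted p. The median log2 fold change of the 4 markers was 0.06. COL1A2, a collagen I gene, was at 0.00 ± 0.12, of a sign that changed with the scaling, TAGLN, an actin-binding protein gene of smooth muscle, at -0.04 ± 0.09, and PDGFD, a platelet-derived growth factor gene, at 0.12 ± 0.08. The summed level was 47299 to 50322 CPM in controls and 44747 to 51620 CPM in parthenotes, and the groups overlapped. COL1A2 alone, with means of 45264 CPM in controls and 45407 CPM in parthenotes, made up most of it. The part of mesenchymal and mural RNA in the level of ETS1 was not tested.

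The 4 members form neighbouring pairs on chromosome 9 of Sscrofa11.1. By RefSeq, ESAM (ENSSSCG00000015200) spans positions 51983019 to 51992415 and ROBO4 (ENSSSCG00000015203) 52083757 to 52097784. ETS1 (ENSSSCG00000015235) spans 55377264 to 55512180 and FLI1 (ENSSSCG00000015237) 55612905 to 55749784, with 101 kb between them. The span of ETS1 overlaps 2 long non-coding RNA genes and that of FLI1 another gene model, and as the library kit does not mark strand, their reads may not be told apart. The spans of ESAM and ROBO4 overlap no other gene, but VSIG2 ends 134 bp from ESAM.

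Within 500 kb of ESAM or ROBO4, 12 other genes with a symbol were in the table and 9 were tested. Of these 9, ROBO3 rose and 0 fell, where 1.61% of all tested genes rose and 3.59% fell. Their log2 fold changes ran from -0.89 to 0.48, with a median of 0.04. ROBO3 ends 1992 bp from ROBO4. The lowest value was that of NRGN, the neuronal gene of neurogranin, at -0.89 ± 0.25. It did not pass edgeR's test (adjusted p = 0.0837) on 42 to 106 reads per embryo. VSIG2 lies between NRGN and ESAM. The span of NRGN, 51967313 to 51977197, overlaps that of VSIG2, 51974577 to 51982884, so their reads may not be told apart. NRGN passed in DESeq2 (adjusted p = 0.0426), where 9.14% of the genes with an adjusted p passed. In edgeR's test it passed without a filter on low counts (0.0394) and without control 1 (0.0431).

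Around ETS1 and FLI1 the members lay beside genes that changed far more. Of 3 other genes within 500 kb, KCNJ1 and KCNJ5 fell and ARHGAP32 did not pass, while 3.59% of all tested genes fell. KCNJ1, which encodes the renal potassium channel ROMK, begins 29.2 kb past the end of FLI1. It had 541, 594 and 566 CPM in controls and 80.3, 69.5 and 92.9 CPM in parthenotes. Its log2 change was -2.81 ± 0.14, with an adjusted p of 3.73e-06 in edgeR's test. KCNJ5, which encodes a G protein-gated potassium channel of heart and adrenal gland, had 109, 186 and 140 CPM in controls and 55.1, 78.0 and 69.98 CPM in parthenotes. Its log2 change was -1.09 ± 0.23, with an adjusted p of 0.0261 in edgeR's test. The call of KCNJ5 was lost where totals alone scaled the libraries (0.0687) and without control 2, control 3, parthenote 1 or parthenote 3 (0.0569 to 0.118), at log2 fold changes of -1.13 to -0.87.

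Ratios of FLI1 to both channel genes were formed because these had fallen, so their separation restates those falls. FLI1 had 2.26, 1.91 and 1.85 reads per KCNJ1 read in controls and 12.0, 14.9 and 11.14 in parthenotes, a ratio 6.30 times as high. Against KCNJ5 the ratio was 11.2, 6.10 and 7.48 in controls and 17.5, 13.3 and 14.8 in parthenotes, 1.89 times as high. Neither pair overlapped between the groups, and both had an exact permutation p of 0.10, the smallest possible, or 0.12 adjusted over the same 6 ratios.

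**Figure D5:**
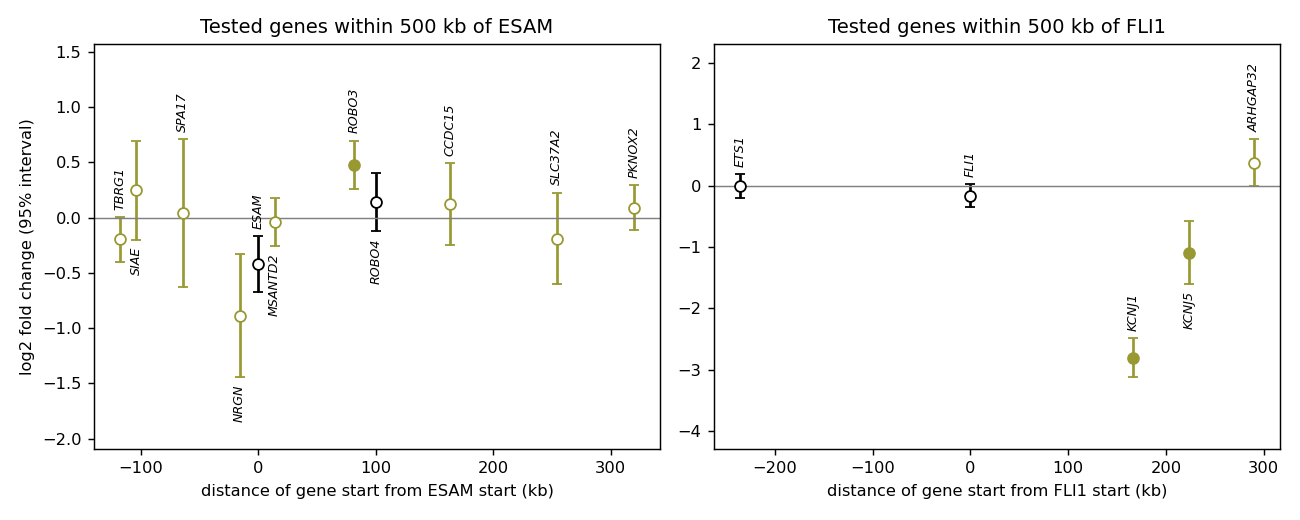
Log2 fold change of parthenotes against controls with its 95% interval (y axis) for tested genes by the distance of their start from that of ESAM (left) or FLI1 (right), in kb (x axis). Members are black and filled points have an adjusted p under 0.05. KCNJ1 at -2.81 and KCNJ5 at -1.09 lie beside FLI1 at -0.16 and ETS1 at -0.01.

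The genes most like each member were taken as the 3 of 656 tested genes with a symbol that had the highest Pearson r of log2 CPM over the 6 embryos. These are descriptions, since the highest of many values from 6 points is high by selection, and the points share their libraries. For ESAM they were PLET1 (r = 0.996), ST14 (0.969) and PEG10 (0.963), and in each of these every parthenote lay below every control, as in ESAM itself. PLET1, a placenta-expressed gene, had 0.673 to 15.7 CPM on only 1 to 20 reads per embryo. ST14, which encodes the epithelial protease matriptase, had 147 to 438 CPM. For ROBO4 they were CHRDL2 (0.989, on 19 to 63 reads per embryo), TTC12 (0.893) and MEOX2 (0.873), the last a homeobox gene of mesoderm and vessels. For ETS1 they were SLC30A1 (0.957), DCUN1D5 (0.957) and ODR4 (0.953), and for FLI1 PLA2G4A (0.982), DYRK3 (0.969) and STARD3NL (0.937). The groups overlapped for all of these latter 9 genes. Among the members, r was 0.67 for ESAM with FLI1, 0.54 for ETS1 with FLI1 and -0.42 for ESAM with ROBO4, so no member stood among the 3 most like another.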

How the data were processed

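Libraries of 6 whole embryos were prepared from total RNA with the TruSeq RNA kit v.2, which does not mark strand, per the labels' protocols. The submitters' processing notes name HISAT2 2.1.0, SAMtools 1.9 and the build Sscrofa11.1. Which tool counted the reads, and on which annotation release, is not stated there. The authors' deposited table holds raw read counts. A deposited file per sample holds normalised signal values, counts multiplied by a factor per sample; divided by it, 100% came within 0.01 of a whole read, and 177 to 277 of 1190 genes per library then differed from the count table. Of the 1780 genes, 779 had a symbol.

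The test was edgeR 4.0.16 (R 4.3.3) on the counts after filterByExpr (minimum count 10, total 15): TMM, robust quasi-likelihood fit, Benjamini-Hochberg over 807 genes, threshold 0.05. The fit was tested on simulated data. SE and intervals come from the same test. Ratios of counts used exact permutation. Alternatives were other scalings, filters, DESeq2 1.42.0, limma 3.58.1 with voom, recovered reads, the replicate number as a block, and each library left out.

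Named genes were the members, called genes and the 3 most abundant of each list, called genes within 500 kb, and the 3 genes of highest r; MCAM, KRIT1, PROX1, ELK4, NRGN and ARHGAP32 were added after seeing values. Members and lists were chosen with earlier results of these data known. Titles number controls and parthenotes 1 to 3 without saying what a number marks. Same-numbered samples correlated at 0.365, 0.272 and 0.147 in their deviations from the group means, and differently numbered ones at -0.298 to 0.145. Deviations from the same group mean are tied to each other, so these values are not independent. The block was treated as a pairing taken from the data and used as an alternative only.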

Additional observations from a re-analysis of the deposited data

How the results depend on the processing

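Over 16 alternatives, the log2 fold changes of ESAM, ROBO4 and FLI1 kept their sign, at -0.47 to -0.38, 0.08 to 0.19 and -0.22 to -0.11. ESAM passed in DESeq2 at -0.43 (adjusted p = 0.0141), and the cause was not tested. ETS1 ran from -0.05 upward and changed sign without control 1 (0.0254; -0.032 to 0.0254 where each library was dropped in turn). The members' other calls did not change, and with the replicate number as a block ESAM was at -0.42 (adjusted p = 0.0536), ROBO4 at 0.14 (0.434), ETS1 at -0.01 (0.946) and FLI1 at -0.16 (0.299), with no call of a member gained or lost; 55 genes were called. The count of called genes was 68 in DESeq2 and 17 to 55 with a library left out, the lowest without control 2 (17), control 3 (18), parthenote 3 (22) and parthenote 2 (26). With library totals as the only scaling 5 rose and 27 fell. No scaling moved the median of all genes by over 0.1. Genes near 0 changed sign. COL1A2 was at -0.00273 with DESeq2's size factors, -0.00794 with library totals, -0.0301 with upper-quartile factors, -0.0131 without a filter, -0.00339 with at least 10 counts in total, -0.00272 in DESeq2, -0.000101 in limma-voom and -0.00914 without the most abundant gene. With upper-quartile factors MCAM was at -0.011 and KRIT1 at -0.00478. With a library left out, COL1A2 ran from -0.0509 to 0.0785, MCAM from -0.0563 to 0.0667, KRIT1 from -0.0191 to 0.0743, CD34 from -0.0707 to 0.0397, MPZL2 from -0.0494 to 0.0445. The depth limits ESAM and ROBO4 most, whose lowest counts carry a counting error of 4.83% and 4.82%.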
